A study of Homo sapiens with 16 samples.

Results

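The 31 genes described here encode enzymes and regulators of cholesterol and fatty acid synthesis, and they were followed in HCT116 cells in which p53 and its inhibitor iASPP were lowered by RNA interference. They were taken as the rows of the deposited expression table whose gene name equals a listed member, and all 31 were found among its 20271 genes. They comprise 7 enzymes of the mevalonate pathway, 11 enzymes of the route from squalene precursors to cholesterol, 5 regulators and sterol carriers, and 8 enzymes of the fatty acid branch. HCT116 is a human colon cancer line, recorded in the sample labels as carrying wild-type p53, and every group was made from it. RNA was measured by sequencing in 16 libraries, 2 for each of 8 groups. The groups were p53+iASPP siRNA with nutlin, p53+iASPP siRNA, iASPP siRNA with nutlin, iASPP siRNA, p53 siRNA with nutlin, p53 siRNA, CTR siRNA with nutlin, and CTR siRNA. Each siRNA acted for 3 days, and the groups with nutlin then received Nutlin-3, which frees p53 from MDM2, for a further 0.5 days. The labels do not say whether the 2 replicates of a group came from separate cultures, so the p-values measure the spread between these libraries, which may be technical. The stated aim of the series was to assess how active p53 is as a transcription factor under these treatments.

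Cholesterol is built from acetyl-CoA through mevalonate, isoprenoid units and squalene, and the first sterol is then trimmed in several steps to cholesterol. The genes of the route are known to be switched on together by the SREBP transcription factors, which SCAP escorts out of the endoplasmic reticulum when sterols are scarce and which INSIG proteins hold back when sterols are plentiful. SREBP-2, from SREBF2, is best known for the sterol genes and SREBP-1, from SREBF1, for the fatty acid genes. Wild-type p53 has been described in earlier work as a brake on the mevalonate pathway.

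SREBP acts through promoters, so the upstream sequence of 7 members is shown: 6 whose level was lower in CTR siRNA cells with nutlin than in CTR siRNA cells, and SREBF2, the only member with a match to the sterol element among those with a window. The stretches are from RefSeq on GRCh38.p14, read 5′ to 3′ on the gene's strand, and each is the longest run of the 250 bases before a transcription start that no annotated untranslated region covers. Capitals mark CCAAT on either strand, the site of NF-Y, a known partner of SREBP, and, in SREBF2, the sterol regulatory element TCACNCCAC. The stretches lie at chr5:43313513-43313662 (HMGCS1, minus strand), chr16:88663149-88663341 (MVD, minus), chr10:1049171-1049369 (IDI1, minus), chr11:71448436-71448643 (DHCR7, minus), chr7:155297628-155297775 (INSIG1, plus), chr4:110198677-110198841 (ELOVL6, minus) and chr22:41832855-41833078 (SREBF2, plus).
HMGCS1: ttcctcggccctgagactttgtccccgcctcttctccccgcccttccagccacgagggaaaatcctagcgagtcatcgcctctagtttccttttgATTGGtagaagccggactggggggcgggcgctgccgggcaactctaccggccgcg
MVD: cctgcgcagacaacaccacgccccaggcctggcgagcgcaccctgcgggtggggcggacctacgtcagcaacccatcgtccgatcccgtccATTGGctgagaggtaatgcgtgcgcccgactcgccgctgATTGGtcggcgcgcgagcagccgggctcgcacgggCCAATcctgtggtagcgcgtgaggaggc
IDI1: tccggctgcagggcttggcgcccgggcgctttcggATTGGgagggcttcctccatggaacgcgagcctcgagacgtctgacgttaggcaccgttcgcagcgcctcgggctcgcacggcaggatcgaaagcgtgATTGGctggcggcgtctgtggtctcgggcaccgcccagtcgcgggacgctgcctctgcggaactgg
DHCR7: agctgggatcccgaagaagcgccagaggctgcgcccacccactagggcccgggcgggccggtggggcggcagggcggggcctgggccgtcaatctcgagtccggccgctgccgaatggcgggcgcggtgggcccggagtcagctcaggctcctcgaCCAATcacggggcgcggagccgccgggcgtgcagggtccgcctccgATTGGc
INSIG1: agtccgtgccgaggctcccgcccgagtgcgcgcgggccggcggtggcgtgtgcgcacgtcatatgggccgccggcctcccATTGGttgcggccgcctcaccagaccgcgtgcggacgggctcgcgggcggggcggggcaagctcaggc
ELOVL6: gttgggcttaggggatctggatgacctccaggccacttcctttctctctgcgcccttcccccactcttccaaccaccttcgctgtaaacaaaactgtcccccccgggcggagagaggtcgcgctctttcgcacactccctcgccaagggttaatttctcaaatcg
SREBF2: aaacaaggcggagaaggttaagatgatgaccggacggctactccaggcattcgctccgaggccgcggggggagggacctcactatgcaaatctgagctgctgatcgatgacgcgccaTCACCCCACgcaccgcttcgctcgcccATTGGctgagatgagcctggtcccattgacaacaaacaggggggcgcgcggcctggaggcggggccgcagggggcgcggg

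A promoter window was given for 27 of the 31 members, all but ACAT2, FDFT1, SQLE and FASN. Searched on both strands of the 250 bases, CCAAT was found in 20 of those 27 genes and in 37% of all genes with a window. The sterol element TCACNCCAC was found in 1 of the 27, against 1.09% of all genes. The E-box CACGTG was found in 3 of the 27 (INSIG1, SCAP and SC5D), against 7.73% of all genes. In the stretches printed no match overlaps another: MVD holds 3 CCAAT matches, IDI1 and DHCR7 hold 2 each, HMGCS1, INSIG1 and SREBF2 hold 1 each, and ELOVL6 holds none. A match describes the letters only and is neither a bound site nor a cause of any level below. Only the letters given were searched, so lack of a match does not mean that a promoter lacks such a site.

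Expression was deposited as FPKM, a level scaled to transcript length and library size, without counts, so the depth of each library is unknown. The steps between the lowest values gave replicate 2 libraries 4.29 to 6.50 times the depth of replicate 1 libraries. Between 10068 and 10726 genes reached 1 FPKM in a library. The 2 replicates differed by a median of 0.0512 to 0.0665 on the log2 scale, over genes of 100 FPKM or more, in 5 groups. In the other 3 groups, p53 siRNA with nutlin, iASPP siRNA with nutlin and p53+iASPP siRNA with nutlin, they differed by 0.178 to 0.259. PPP1R13L, the gene of iASPP, was at 0.279 to 2.45 FPKM in the 8 libraries with iASPP siRNA and at 6.88 to 18.9 FPKM in the 8 without. CDKN1A, a p53 target gene, had 1510 and 1577 FPKM in CTR siRNA cells with nutlin, against 70.7 and 72.7 FPKM in CTR siRNA cells. It had 47.4 and 107 FPKM in p53 siRNA cells with nutlin, against 14.5 and 15.6 FPKM in p53 siRNA cells. The epithelial markers EPCAM (138 to 261 FPKM) and KRT8 (849 to 1634 FPKM) were high throughout, as were KRT18 and KRT19 (736 to 2882 FPKM). CDH1 was at 4.13 to 9.78 FPKM and VIL1 at no more than 0.222 FPKM. CD3E was listed at 0 in every library, COL1A2 in all but 1, and PTPRC, PECAM1, VWF, COL1A1 and DCN stayed at or under 1.51 FPKM. CD68, a lysosomal protein best known from macrophages, was at 0.745 to 7.17 FPKM. In such bulk samples fewer cells of a kind and less RNA per cell cannot be told apart.

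All 31 members were expressed above the filter of a mean of 1 FPKM over the 16 libraries. Levels per length ran from FADS2, a fatty acid desaturase, with a median of 5.37 FPKM over the libraries, to FDPS, which makes farnesyl diphosphate, with a median of 213 FPKM. INSIG1, the sterol-regulated anchor of SCAP, had the widest range of the 31, 13.4-fold, between 7.18 FPKM in iASPP siRNA with nutlin replicate 1 and 96.5 FPKM in p53 siRNA with nutlin replicate 2. EBP, the sterol isomerase, followed with 6.46-fold and HMGCS1, which makes HMG-CoA, with 5.05-fold. SREBF2 had the narrowest range, 1.35-fold, between 18.0 and 24.4 FPKM.

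The summed level of the 18 mevalonate and squalene-to-cholesterol enzymes shows the pattern over the groups. The sum was 953 and 1377 FPKM in p53+iASPP siRNA cells with nutlin and 1055 and 1065 FPKM in p53+iASPP siRNA cells. It was 630 and 1184 FPKM in iASPP siRNA cells with nutlin and 746 and 748 FPKM in iASPP siRNA cells. It was 1174 and 1612 FPKM in p53 siRNA cells with nutlin, 1290 and 1335 FPKM in p53 siRNA cells, 898 and 843 FPKM in CTR siRNA cells with nutlin, and 1364 and 1359 FPKM in CTR siRNA cells. The lowest pairs that agreed closely were iASPP siRNA and CTR siRNA with nutlin, and the highest were CTR siRNA and p53 siRNA. In each of the 3 groups whose replicates differed, replicate 2 was the higher by far, and in iASPP siRNA with nutlin the 2 libraries fell on either side of both low pairs. The 8 fatty acid enzymes summed to 286 and 397 FPKM in p53+iASPP siRNA with nutlin and 327 and 334 FPKM in p53+iASPP siRNA. Their sum was 281 and 402 FPKM in iASPP siRNA with nutlin and 314 and 314 FPKM in iASPP siRNA. It was 334 and 400 FPKM in p53 siRNA with nutlin and 359 and 353 FPKM in p53 siRNA. In CTR siRNA cells it was 285 and 285 FPKM with nutlin and 400 and 403 FPKM without.

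**Figure D1:**
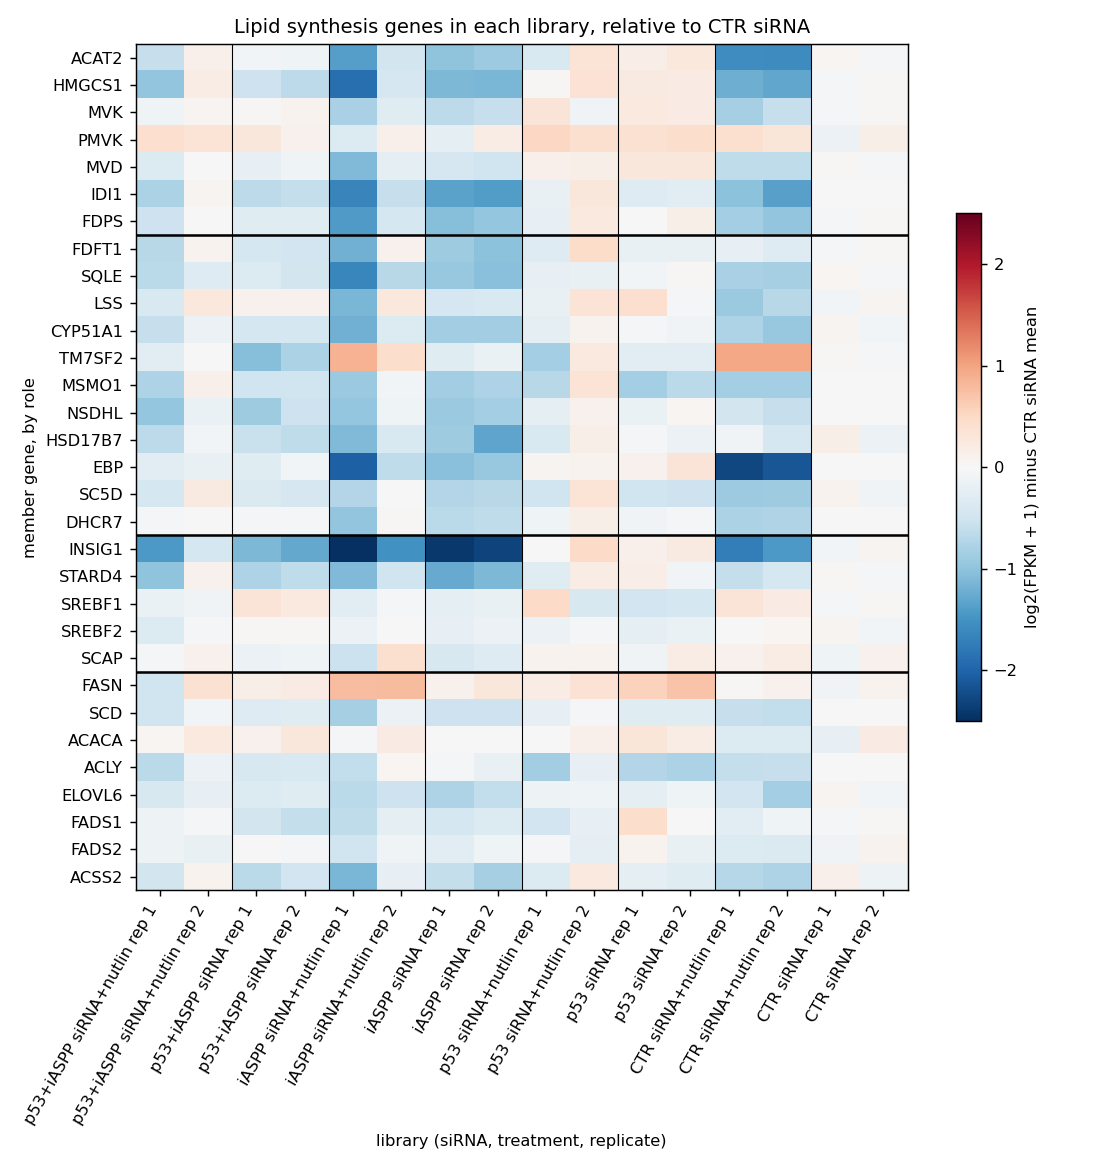
Log2 level of each of the 31 genes in each of the 16 libraries, relative to the mean of the gene in the 2 CTR siRNA libraries, with genes in rows by role and libraries in columns by group. Colour gives the log2 difference in log2(FPKM + 1). INSIG1 spans the widest range and SREBF2 the narrowest, and the replicate 2 libraries of the 3 nutlin groups with p53 or iASPP siRNA differ from their replicate 1 libraries.

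With nutlin in CTR siRNA cells 11 of the 18 sterol enzymes fell and 1 rose. Of the 31 members, 14 fell and 1 rose, where over all 10662 genes tested 21% fell and 5.87% rose. The members that fell were 6 of the 7 mevalonate enzymes, 5 of the 11 squalene-to-cholesterol enzymes, 1 of the 5 regulators and 2 of the 8 fatty acid enzymes. The member that rose, TM7SF2, belongs to the squalene-to-cholesterol enzymes. The median log2 change was −0.64 over the members and −0.20 over all genes tested. The list was chosen with earlier results of these data known, so member counts and medians set beside all genes here and below are descriptive only. Changes here and below are differences in log2(FPKM + 1), which understate the change of low genes, tested with limma in 1 fit of 16 libraries with Benjamini-Hochberg adjustment over all genes. Of 2 libraries against 2, the exact permutation test can give no p below 0.333, so it was not used for single genes.

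EBP, which shifts the double bond in the sterol ring, had 13.0 and 14.5 FPKM in CTR siRNA cells with nutlin, against 66.2 and 67.9 FPKM in CTR siRNA cells. Both nutlin libraries lay far under both CTR siRNA libraries, a 4.86-fold lower mean. The log2 change was −2.20 ± 0.32 (SE, adjusted p = 0.000497), the largest among the members. ACAT2, which condenses acetyl-CoA at the start of the route, had 5.21 and 5.09 FPKM in CTR siRNA cells with nutlin, against 17.7 and 16.6 FPKM in CTR siRNA cells. The groups did not overlap, the mean was 3.32-fold lower and the log2 change was −1.56 ± 0.31 (adjusted p = 0.00348). INSIG1 had 20.1 and 24.8 FPKM in CTR siRNA cells with nutlin, against 65.5 and 72.2 FPKM in CTR siRNA cells. Its mean was 3.07-fold lower with no overlap, a log2 change of −1.58 ± 0.43 (adjusted p = 0.0184).

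The early enzymes moved the same way. HMGCS1 had 19.5 and 18.2 FPKM in CTR siRNA cells with nutlin, against 45.8 and 47.1 FPKM in CTR siRNA cells, and fell by 1.26 ± 0.41 on the log2 scale (adjusted p = 0.0440). IDI1, which interconverts the isoprenoid units, had 28.6 and 22.4 FPKM in CTR siRNA cells with nutlin, against 58.4 and 60.05 FPKM in CTR siRNA cells, and fell by 1.19 ± 0.33 (adjusted p = 0.0204). In both genes the nutlin libraries were far under both CTR siRNA libraries. FDPS fell by 0.92 ± 0.26 (adjusted p = 0.0254), MVK, the mevalonate kinase, by 0.70 ± 0.18 (adjusted p = 0.0146), and MVD, the decarboxylase after it, by 0.64 ± 0.21 (adjusted p = 0.0452). PMVK, the kinase between MVK and MVD, did not pass, with 27.9 and 26.0 FPKM in CTR siRNA cells with nutlin, against 18.8 and 23.5 FPKM in CTR siRNA cells.

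Among the later enzymes, SQLE, the squalene epoxidase, fell by 0.82 ± 0.23 (adjusted p = 0.0221), and CYP51A1, the lanosterol demethylase, by 0.87 ± 0.23 (adjusted p = 0.0176). SC5D, the lathosterol desaturase, fell by 0.89 ± 0.29 (adjusted p = 0.0420), and DHCR7, which makes cholesterol from its last precursor, by 0.78 ± 0.23 (adjusted p = 0.0302). FDFT1 (squalene synthase), LSS (lanosterol synthase), MSMO1 (the sterol methyl oxidase), NSDHL and HSD17B7 (which with it remove the methyl groups) did not pass, with changes between −0.85 and −0.26. TM7SF2, a sterol reductase that acts after CYP51A1, went the other way. It had 74.8 and 75.0 FPKM in CTR siRNA cells with nutlin, against 38.8 and 37.1 FPKM in CTR siRNA cells. Both nutlin libraries were higher, by 1.97-fold in the means and by 0.96 ± 0.28 on the log2 scale (adjusted p = 0.0247). Exons of TM7SF2 overlap those of VPS51 on the same strand of chromosome 11. VPS51, a subunit of a vesicle tethering complex, changed by 0.19 (adjusted p = 0.429). How reads shared by the 2 genes were assigned is not given in the sources used here.

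In the fatty acid branch ELOVL6, the elongase of saturated chains, had 10.6 and 8.09 FPKM in CTR siRNA cells with nutlin, against 16.03 and 14.6 FPKM in CTR siRNA cells. It fell by 0.66 ± 0.14 on the log2 scale (adjusted p = 0.00563) with no overlap. SCD, which puts the first double bond into saturated chains, had 146 and 144 FPKM in CTR siRNA cells with nutlin, against 221 and 219 FPKM in CTR siRNA cells, and fell by 0.60 ± 0.19 (adjusted p = 0.0384). FASN, the fatty acid synthase, had 41.2 and 43.4 FPKM in CTR siRNA cells with nutlin, against 37.7 and 43.0 FPKM in CTR siRNA cells, and the groups overlapped. ACLY and ACSS2 (which make acetyl-CoA), ACACA (acetyl-CoA carboxylase), FADS1 and FADS2 (desaturases of long chains) did not pass, with changes between −0.74 and −0.20. Of the regulators other than INSIG1, STARD4, a sterol carrier, changed by −0.51, SREBF1 by 0.26, SCAP by 0.14 and SREBF2 by 0.03, and none passed. The exons of ACAT2 overlap TCP1, SOD2 and SOD2-OT1 on the other strand, and those of MVK overlap MMAB there. Those of CYP51A1 overlap AC000120.2 and AC000120.3 on the same strand. Exons of several other members overlap genes that are not named here. TCP1, a chaperonin subunit, changed by −0.62 (adjusted p = 0.0154) and MMAB, a cobalamin enzyme, by −0.70 (adjusted p = 0.0226). Exons of FADS2 overlap FEN1 on the same strand and FADS1 on the other. FEN1, a nuclease of DNA replication, had 4.22 and 4.40 FPKM in CTR siRNA cells with nutlin, against 55.3 and 60.04 FPKM in CTR siRNA cells (log2 −3.47, adjusted p = 4.97e-05). Whether the counting used strand is not stated, so reads of partners on the other strand cannot be told apart. FEN1 and FADS2 lie on the same strand, where use of strand would not separate their reads. How reads shared by these 2 genes were assigned is not given either. FDPS and HSD17B7 have near-identical pseudogene copies and their values are uncertain in the same way.

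The median of all genes moved by −0.20 in this comparison, and scaling the libraries to a common median of ratios shifted it by 0.20. After that scaling 8 members fell and 2 rose (PMVK and TM7SF2), and the member median was −0.40. Over all genes 21.9% of the calls were rises as deposited and 47.6% after scaling. Fewer members passed without any 1 of the 4 libraries compared. Such a fit leaves 1 library in a group, so calls can be lost through a wider error alone. The member median, −0.64 in all libraries, was −0.60 without CTR siRNA replicate 1 and −0.66 without its replicate 2. It was −0.61 without CTR siRNA with nutlin replicate 1 and −0.59 without its replicate 2. Without the 3 replicate 2 libraries that differ from their pairs 23 members passed, 21 lower and TM7SF2 and SREBF1 higher, where 31.2% of all genes were lower and 9.92% higher, and with genes of any mean level kept 8 passed. With the 5 close pairs averaged and counted as 1 sample each, no member passed in this or any other comparison by limma. TM7SF2 lost its call without any 1 of these 4 and with genes of any mean level kept (adjusted p = 0.0510).

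**Figure D2:**
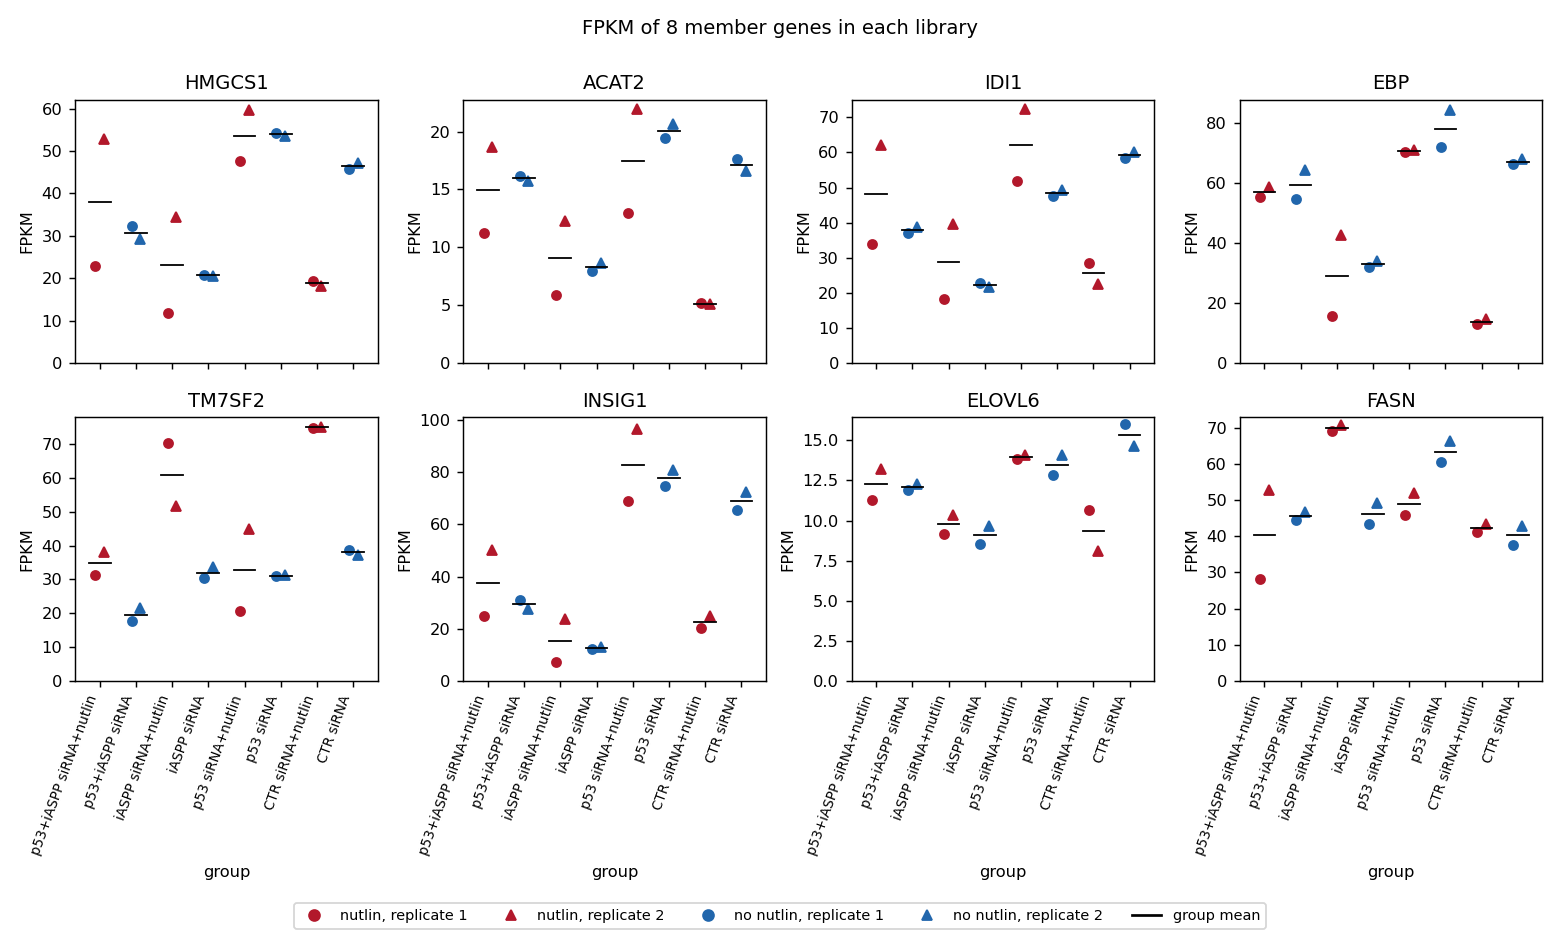
FPKM of EBP, ACAT2, HMGCS1, IDI1, INSIG1, TM7SF2, ELOVL6 and FASN in the 8 groups, with a circle for replicate 1, a triangle for replicate 2, a line at their mean and red for nutlin, on an axis from 0. EBP is at 13.0 and 14.5 FPKM in CTR siRNA with nutlin and at 66.2 and 67.9 FPKM in CTR siRNA, while TM7SF2 runs the other way and FASN is highest in iASPP siRNA with nutlin.

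With p53 siRNA in nutlin-treated cells 9 of the 18 sterol enzymes rose and 1 fell. Of the 31 members, 11 rose and 1 fell, where 17.2% of all genes tested rose and 5.29% fell. The members that rose were 6 of the 7 mevalonate enzymes, 3 of the 11 squalene-to-cholesterol enzymes, INSIG1 among the regulators and ELOVL6 among the fatty acid enzymes. The member median was 0.54 and that of all genes 0.19. This comparison uses the same 2 libraries of CTR siRNA cells with nutlin as the nutlin comparison, so the values of each are set side by side here and are not independent.

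EBP had 70.1 and 70.9 FPKM in p53 siRNA cells with nutlin, against 13.0 and 14.5 FPKM in CTR siRNA cells with nutlin. That is 5.12-fold higher in the mean with no overlap, and a log2 change of 2.28 ± 0.32 (adjusted p = 0.000577). INSIG1 had 68.9 and 96.5 FPKM in p53 siRNA cells with nutlin, against 20.1 and 24.8 FPKM in CTR siRNA cells with nutlin, 3.69-fold higher (log2 1.82 ± 0.43, adjusted p = 0.0111). ACAT2 had 13.0 and 21.9 FPKM in p53 siRNA cells with nutlin, against 5.21 and 5.09 FPKM in CTR siRNA cells with nutlin, 3.39-fold higher (log2 1.54 ± 0.31, adjusted p = 0.00456). For ACAT2 the 2 p53 siRNA libraries differed widely, but both were above both CTR siRNA libraries. HMGCS1 rose by 1.45 ± 0.41 (adjusted p = 0.0281) and IDI1 by 1.24 ± 0.33 (adjusted p = 0.0203). FDPS (0.94), MVK (0.82), MVD (0.77), CYP51A1 (0.80), DHCR7 (0.79) and ELOVL6 (0.54) rose with adjusted p between 0.00803 and 0.0323. TM7SF2 had 20.5 and 44.9 FPKM in p53 siRNA cells with nutlin, against 74.8 and 75.0 FPKM in CTR siRNA cells with nutlin. It fell by 1.27 ± 0.28 on the log2 scale (adjusted p = 0.00774). Both p53 siRNA libraries were lower, replicate 1 by far more than replicate 2.

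After median-of-ratios scaling 8 members rose and 2 fell (TM7SF2 and SREBF2), and 53.1% of all calls were rises in place of 76.5%. The number past the threshold was 4 without CTR siRNA with nutlin replicate 1 or without p53 siRNA with nutlin replicate 2, and 5 without CTR siRNA with nutlin replicate 2. In replicate 2 of p53 siRNA with nutlin 27 of the 31 members were above replicate 1, by a median of 0.30 on the log2 scale, where 45.6% of all genes were. The part of that library in the result was tested only by leaving it out.

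In p53 siRNA cells nutlin changed no member past the threshold, where 0.141% of all genes tested rose and 0.0844% fell. At an unadjusted p under 0.05 by limma there were 2 of the 31 members, SREBF1 at 0.49 and FADS1 at −0.57, and 15.1% of all genes. EBP had 70.1 and 70.9 FPKM in p53 siRNA cells with nutlin, against 71.8 and 84.0 FPKM in p53 siRNA cells. INSIG1 had 68.9 and 96.5 FPKM in p53 siRNA cells with nutlin, against 74.8 and 80.7 FPKM in p53 siRNA cells, and the groups overlapped. Over the members the median was −0.01, and over all genes it was −0.02. Without the 3 replicate 2 libraries that differ from their pairs, 2 members passed, SREBF1 at 0.93 and ACAT2 at −0.59, where 1.56% of all genes were higher and 1.14% lower. Without p53 siRNA with nutlin replicate 2 alone, 1 passed.

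The difference between these 2 nutlin effects was tested as an interaction, the effect in p53 siRNA cells minus that in CTR siRNA cells. It passed for 2 members, both higher, where 7.65% of all genes tested were higher and 2.1% lower. That count is no larger a share of the 31 than over all genes. EBP differed by 2.07 ± 0.45 on the log2 scale (adjusted p = 0.0166), with a nutlin effect of −0.14 in p53 siRNA cells and −2.20 in CTR siRNA cells. ELOVL6 differed by 0.71 ± 0.20 (adjusted p = 0.0465), with 0.05 in p53 siRNA cells and −0.66 in CTR siRNA cells. At an unadjusted p under 0.05 there were 15 of the 31 members and 27.4% of all genes, and 26 of 31 differences were above 0, as were 64.7% over all genes. The member median was 0.65 and that of all genes 0.20. ACAT2 (1.33, adjusted p = 0.0762), IDI1 (1.53, adjusted p = 0.0625), SC5D (1.31, adjusted p = 0.0681) and INSIG1 (1.65, adjusted p = 0.104) did not pass.

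This test moved with single libraries. Shares over all genes are not given for those fits, so their counts do not single out the members. None passed without CTR siRNA replicate 1, CTR siRNA replicate 2 or p53 siRNA replicate 1. Without either iASPP siRNA with nutlin library, which takes no part in the difference and only lends its spread to the fit, 12 passed. The count was 3 without either library of p53 siRNA with nutlin or of p53+iASPP siRNA with nutlin. It was 1 without p53 siRNA replicate 2 or without either library of iASPP siRNA, p53+iASPP siRNA or CTR siRNA with nutlin. Scaling left EBP alone (ELOVL6 adjusted p = 0.110), and so did keeping genes of any mean level (ELOVL6 adjusted p = 0.0588). Without the 3 diverging replicate 2 libraries 20 passed, 18 of them higher and TM7SF2 (−1.54) and FASN (−0.53) lower, where 18.8% of all genes were higher and 5.66% lower. ELOVL6 did not pass in 11 of the 16 fits that left out 1 library. EBP lost its call without CTR siRNA replicate 1 (adjusted p = 0.0566), CTR siRNA replicate 2 (0.0512), p53 siRNA replicate 1 (0.0678) or CTR siRNA with nutlin replicate 1 (0.0617).

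**Figure D3:**
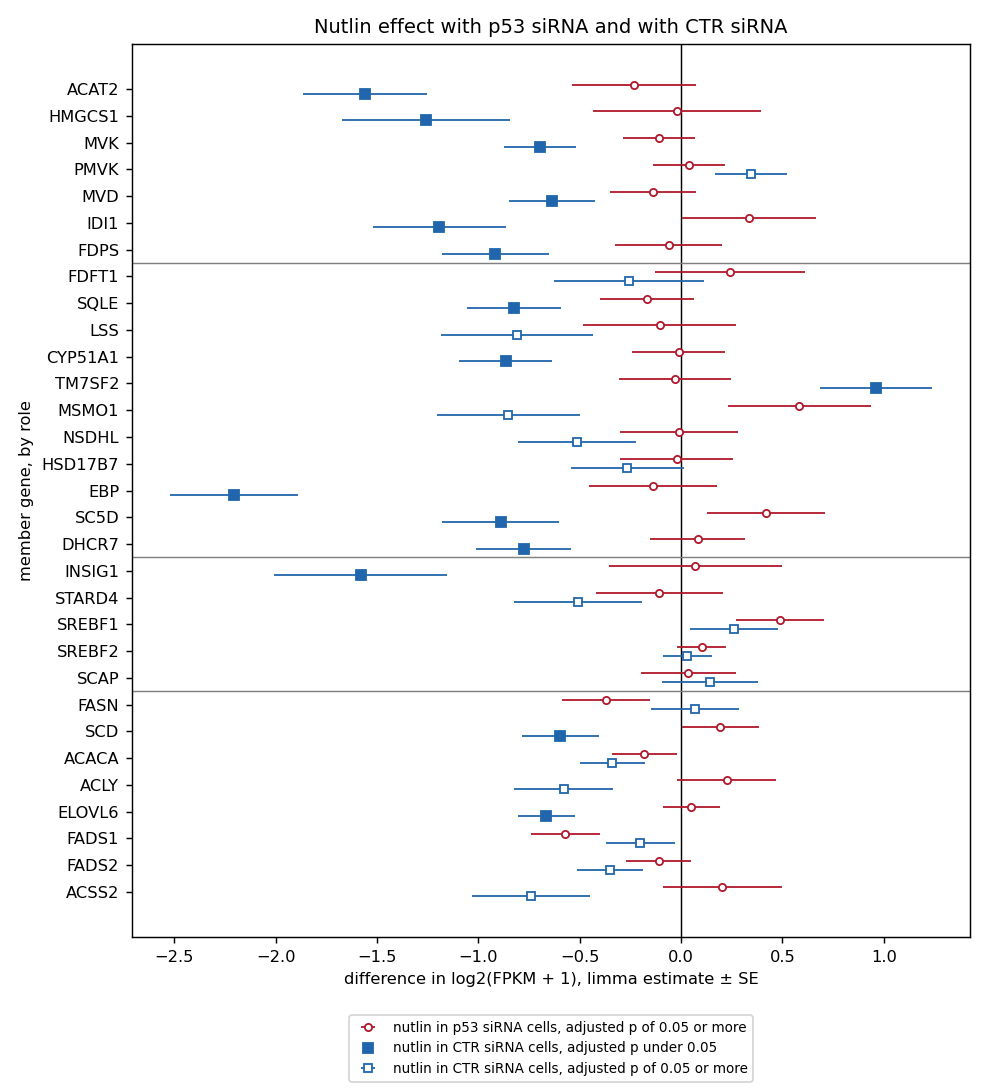
Log2 effect of nutlin on each of the 31 genes in p53 siRNA cells and in CTR siRNA cells, with the standard error from the fit as a line and filled points past the adjusted p of 0.05. In CTR siRNA cells EBP is lowest at −2.20 and TM7SF2 is highest at 0.96, and in p53 siRNA cells no gene passes.

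Without nutlin p53 siRNA moved no member past the threshold, where 0% of all genes tested rose and 0.0375% fell. There were 3 members at an unadjusted p under 0.05, FASN at 0.64, PMVK at 0.42 and ACLY, the ATP citrate lyase, at −0.76, beside 12.9% of all genes. ACLY had 39.5 and 37.7 FPKM in p53 siRNA cells, against 65.5 and 66.5 FPKM in CTR siRNA cells (adjusted p = 0.253). FASN had 60.5 and 66.3 FPKM in p53 siRNA cells, against 37.7 and 43.0 FPKM in CTR siRNA cells (adjusted p = 0.275). Neither pair of groups overlapped, and the distance within each pair was small beside that between the groups. Both genes were named for their unadjusted p, and such separation of 2 libraries against 2 has an exact permutation p of 0.333. MSMO1 had 64.0 and 72.9 FPKM in p53 siRNA cells, against 116 and 117 FPKM in CTR siRNA cells (log2 −0.76, adjusted p = 0.395). The spread that the test used comes from all 8 groups, 3 of them wide. Without the 3 replicate 2 libraries that differ from their pairs, 7 members passed: MVD and FASN higher, and MSMO1, SC5D, SREBF1, SCD and ACLY lower. Of all genes 3.51% were higher and 4.44% lower in that setting. Leaving out single libraries gave none.

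With iASPP siRNA and no nutlin 5 of the 18 sterol enzymes fell and no member rose. Of the 31 members 8 fell, where 5.11% of all genes tested fell and 2.75% rose. They were 2 of the 7 mevalonate enzymes (IDI1 and FDPS), 3 of the 11 squalene-to-cholesterol enzymes (SQLE, CYP51A1 and HSD17B7), 2 of the 5 regulators and carriers (INSIG1 and STARD4) and ELOVL6 of the 8 fatty acid enzymes. The member median was −0.70 and that of all genes −0.09, and 30 of the 31 changes were below 0, FASN being the exception at 0.19, as were 59.9% over all genes. This comparison shares the 2 CTR siRNA libraries with the nutlin comparison in CTR siRNA cells, so the 2 sets of values are not independent.

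INSIG1 had 12.2 and 13.1 FPKM in iASPP siRNA cells, against 65.5 and 72.2 FPKM in CTR siRNA cells. The mean was 5.45-fold lower and the groups lay far apart, a log2 change of −2.36 ± 0.43 (adjusted p = 0.0126). IDI1 had 22.9 and 21.8 FPKM in iASPP siRNA cells, against 58.4 and 60.05 FPKM in CTR siRNA cells, 2.65-fold lower (log2 −1.37 ± 0.33, adjusted p = 0.0318). STARD4 had 7.90 and 8.91 FPKM in iASPP siRNA cells, against 20.8 and 20.1 FPKM in CTR siRNA cells, and fell by 1.19 ± 0.31 (adjusted p = 0.0431). SQLE had 22.1 and 20.7 FPKM in iASPP siRNA cells, against 44.9 and 42.3 FPKM in CTR siRNA cells, and fell by 0.99 ± 0.23 (adjusted p = 0.0278). In these 4 genes the 2 libraries of each group were close together and the groups did not overlap. HSD17B7 had 39.6 and 29.1 FPKM in iASPP siRNA cells, against 82.3 and 66.3 FPKM in CTR siRNA cells, and fell by 1.10 ± 0.28 (adjusted p = 0.0389). ELOVL6 had 8.53 and 9.64 FPKM in iASPP siRNA cells, against 16.03 and 14.6 FPKM in CTR siRNA cells, and fell by 0.70 ± 0.14 (adjusted p = 0.0178). FDPS fell by 1.02 ± 0.26 (adjusted p = 0.0409) and CYP51A1 by 0.87 ± 0.23 (adjusted p = 0.0440). ACAT2 (−0.96, adjusted p = 0.0740), HMGCS1 (−1.13, adjusted p = 0.110) and EBP (−0.998, adjusted p = 0.0742) did not pass, although their means were 2.06-, 2.24- and 2.03-fold lower. TM7SF2 changed by −0.24 (adjusted p = 0.616).

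The number of calls moved with the spread entered in the fit. Shares over all genes are not given for fits without 1 library, so those counts do not single out the members. Leaving out CTR siRNA replicate 1 or 2, or iASPP siRNA replicate 1 or 2, gave none. It was 4 without either library of p53 siRNA or of CTR siRNA with nutlin, 3 without either of p53+iASPP siRNA, and 17 without either of iASPP siRNA with nutlin. Keeping genes of any mean level left 2, INSIG1 and ELOVL6, and 20 passed without the 3 diverging replicate 2 libraries, where 18.5% of all genes were lower and 8.62% higher. CDKN1A had 411 and 406 FPKM in iASPP siRNA cells, against 70.7 and 72.7 FPKM in CTR siRNA cells, and its part in the members' change was not tested.

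With p53 lowered as well, iASPP siRNA changed no member past the threshold, where 0.525% of all genes tested rose and 0.422% fell. Of the 31 members, 6 were at an unadjusted p under 0.05: INSIG1, STARD4, FADS1, TM7SF2 and NSDHL lower, and SREBF1 higher, beside 16.5% of all genes. INSIG1 had 30.96 and 27.6 FPKM in p53+iASPP siRNA cells, against 74.8 and 80.7 FPKM in p53 siRNA cells. It was 2.66-fold lower in the mean with no overlap (log2 −1.38 ± 0.43, adjusted p = 0.148). FADS1 had 18.3 and 16.7 FPKM in p53+iASPP siRNA cells, against 35.2 and 25.9 FPKM in p53 siRNA cells (log2 −0.76 ± 0.17, adjusted p = 0.0663). SREBF1 had 23.1 and 22.1 FPKM in p53+iASPP siRNA cells, against 13.0 and 13.4 FPKM in p53 siRNA cells (log2 0.73, adjusted p = 0.132). The groups did not overlap in any of these 3 genes. They were named from those at an unadjusted p under 0.05, so the separation adds no support. With 2 libraries against 2 it has an exact permutation p of 0.333. The median change was −0.31 over the members and −0.003 over all genes. Whether the iASPP effect differs between p53 siRNA and CTR siRNA cells was not tested. Without the 3 diverging replicate 2 libraries 15 members passed, SREBF1 and ACLY higher and 13 lower, where 6.21% of all genes were higher and 5.76% lower. FADS1 alone passed after scaling, 1 member passed without either library of p53 siRNA with nutlin, and 2 passed without either of iASPP siRNA with nutlin.

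**Figure D4:**
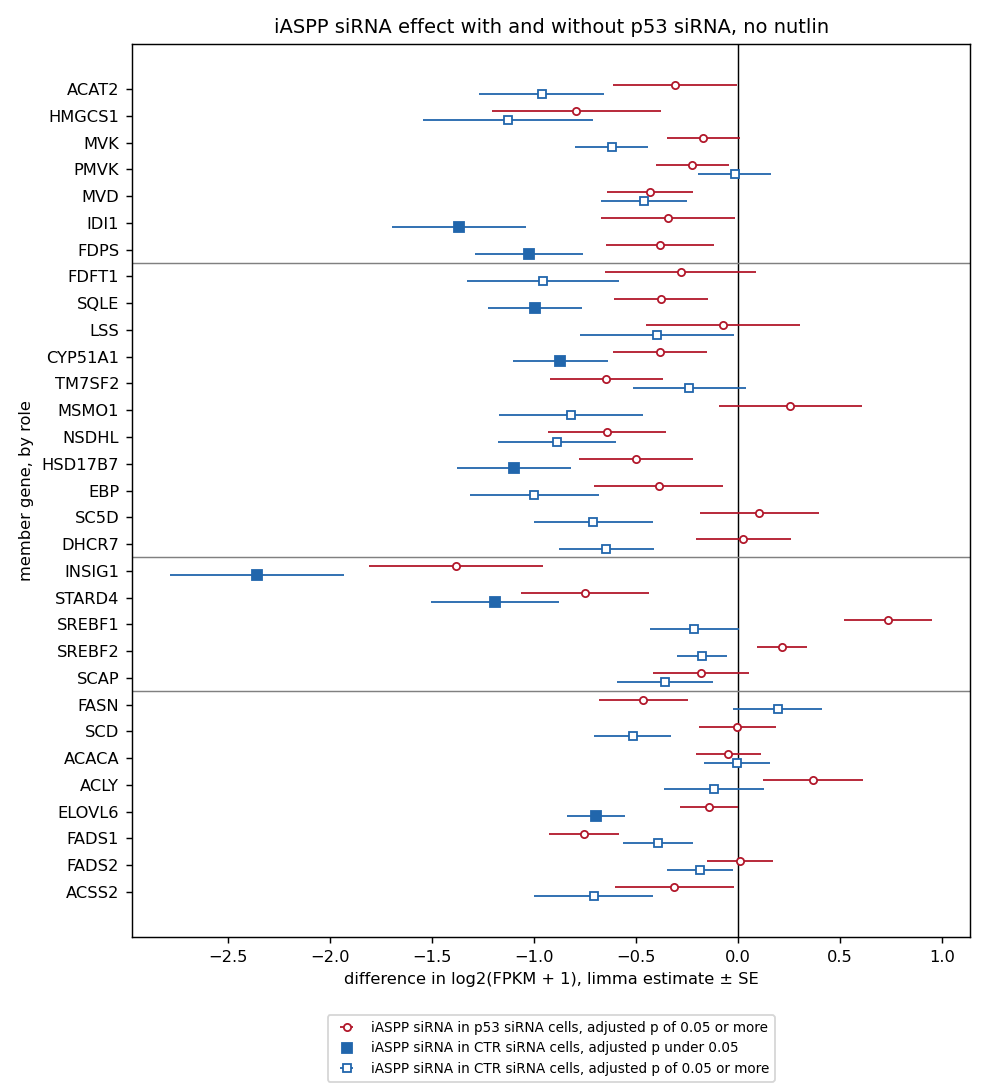
Log2 effect of iASPP siRNA without nutlin on each of the 31 genes in p53 siRNA cells and in CTR siRNA cells, with the standard error from the fit as a line and filled points past the adjusted p of 0.05. INSIG1 is lowest in both, at −1.38 in p53 siRNA cells and −2.36 in CTR siRNA cells, and only the second passes.

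In iASPP siRNA cells without nutlin p53 siRNA changed no member past the threshold, where 0.422% of all genes tested rose and 0.553% fell. The changes of 27 of the 31 members were above 0, as were 61.9% over all genes, and the median was 0.38, beside 0.08 over all genes. At an unadjusted p under 0.05 there were 11 of the 31 members and 17.7% of all genes. INSIG1 had 30.96 and 27.6 FPKM in p53+iASPP siRNA cells, against 12.2 and 13.1 FPKM in iASPP siRNA cells (log2 1.15, adjusted p = 0.188). EBP had 54.5 and 64.1 FPKM in p53+iASPP siRNA cells, against 32.0 and 34.1 FPKM in iASPP siRNA cells (log2 0.82, adjusted p = 0.203). Both genes were higher in both libraries, and INSIG1 stayed under its 65.5 and 72.2 FPKM of CTR siRNA cells. Without the 3 diverging libraries 19 members passed, 17 of them higher and TM7SF2 and ACLY lower, where 11.5% of all genes were higher and 4.33% lower. More members passed without either library of iASPP siRNA with nutlin, in fits for which the share over all genes is not given here.

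The combined groups with nutlin rest on the pairs whose replicates differ most. In iASPP siRNA cells with nutlin 30 of the 31 members were higher in replicate 2 than in replicate 1, by a median of 0.85 on the log2 scale, where 64.4% of all genes were higher, by a median of 0.16. In p53+iASPP siRNA cells with nutlin 29 of 31 were higher in replicate 2, by a median of 0.43, where 63.5% of all genes were higher, by a median of 0.11. In the 5 close pairs 15 to 20 of the 31 were higher in replicate 2. HMGCS1 had 11.8 and 34.4 FPKM in the 2 libraries of iASPP siRNA with nutlin, and INSIG1 had 7.18 and 23.6 FPKM. CDKN1A had 1656 FPKM in replicate 1 and 776 FPKM in replicate 2 of that group. The labels do not say what set these libraries apart, and its part in the members' levels was not tested.

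**Figure D5:**
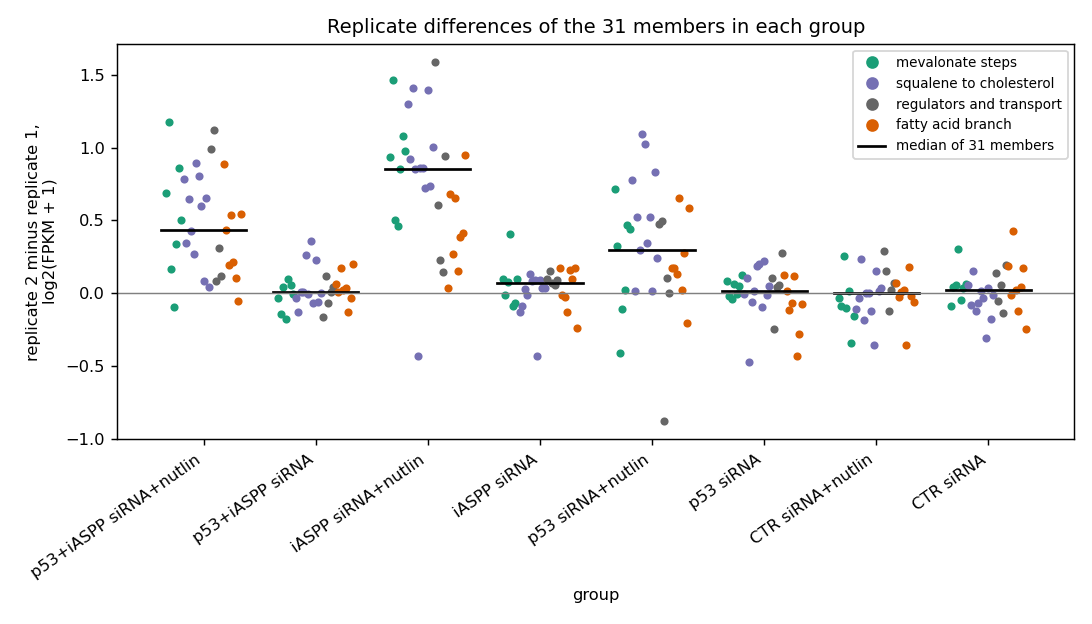
Log2 difference between replicate 2 and replicate 1 of each of the 31 genes in each group, each point a gene coloured by role and each black line the median of the 31. The median over the 31 genes is 0.85 in iASPP siRNA with nutlin, 0.43 in p53+iASPP siRNA with nutlin and 0.30 in p53 siRNA with nutlin, and near 0 in the other 5 groups.

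iASPP siRNA in nutlin-treated cells changed no member past the threshold, where 0.506% of all genes tested rose and 0.263% fell. At an unadjusted p under 0.05 there were 4 members, FASN at 0.71, EBP at 0.87, ACACA at 0.42 and PMVK at −0.46, beside 15.9% of all genes. HMGCS1 had 11.8 and 34.4 FPKM in iASPP siRNA cells with nutlin, against 19.5 and 18.2 FPKM in CTR siRNA cells with nutlin, so replicate 1 lay under both and replicate 2 above both. FASN had 69.1 and 70.7 FPKM in iASPP siRNA cells with nutlin, against 41.2 and 43.4 FPKM in CTR siRNA cells with nutlin (adjusted p = 0.151). Its replicates agreed and the groups did not overlap. The member median was 0.06 and that of all genes 0.07. Without the 3 diverging libraries the member median was −0.34 and 12 members passed, FASN higher and 11 lower, where 6.74% of all genes were higher and 8.74% lower. Without iASPP siRNA with nutlin replicate 1 there were 2 calls, both higher, and the member median was 0.40. Without its replicate 2 there were 3, all lower, and the median was −0.34, so the sign depends on which of these 2 libraries is left out. Without either library of p53+iASPP siRNA with nutlin there was 1, which was higher.

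Nutlin in iASPP siRNA cells also changed no member past the threshold, where 1.3% of all genes tested rose and 3.9% fell. Of the 31 members, 2 were at an unadjusted p under 0.05, beside 22.1% of all genes. TM7SF2 had 70.2 and 51.8 FPKM in iASPP siRNA cells with nutlin, against 30.5 and 33.5 FPKM in iASPP siRNA cells, with no overlap (log2 0.89, adjusted p = 0.0909). FASN had 69.1 and 70.7 FPKM in iASPP siRNA cells with nutlin, against 43.4 and 49.2 FPKM in iASPP siRNA cells (log2 0.59, adjusted p = 0.149). TM7SF2 and FASN were named for their unadjusted p, so separation of their groups adds no support. The member median was 0.09 in all libraries and −0.28 without the 3 diverging ones. In that second setting 15 members passed, TM7SF2 and FASN higher and 13 lower, with EBP at −1.04, where 7.95% of all genes were higher and 19.9% lower. Without iASPP siRNA with nutlin replicate 1 there were 2 calls, both higher, and the member median was 0.53. Without its replicate 2 there were 4, 1 higher and 3 lower, and the median was −0.28, so here too the sign depends on which library is left out. Without either nutlin library of p53 siRNA or of p53+iASPP siRNA there was 1, which was higher.

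In p53+iASPP siRNA cells nutlin changed no member past the threshold, and 0% of all genes tested rose or fell by limma. At an unadjusted p under 0.05 there were 2 members, TM7SF2 at 0.79 and FADS1 at 0.45, beside 7.06% of all genes. TM7SF2 had 31.4 and 38.01 FPKM in p53+iASPP siRNA cells with nutlin, against 17.7 and 21.5 FPKM in p53+iASPP siRNA cells, and the groups did not overlap. TM7SF2 was named for its unadjusted p, so this separation adds no support. INSIG1 had 24.7 and 50.1 FPKM in p53+iASPP siRNA cells with nutlin, against 30.96 and 27.6 FPKM in p53+iASPP siRNA cells, and the groups overlapped. No library or group of libraries left out gave a call.

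Lastly, with p53 siRNA in cells with iASPP siRNA and nutlin, EBP rose and FASN fell among the 31 members, where 10.8% of all genes tested rose and 4.82% fell. EBP had 55.1 and 58.6 FPKM in p53+iASPP siRNA cells with nutlin, against 15.6 and 42.6 FPKM in iASPP siRNA cells with nutlin. The change was 1.10 ± 0.32 on the log2 scale (adjusted p = 0.0383), and although the groups did not overlap the 2 iASPP siRNA libraries lay far apart. FASN had 28.1 and 52.8 FPKM in p53+iASPP siRNA cells with nutlin, against 69.1 and 70.7 FPKM in iASPP siRNA cells with nutlin. It fell by 0.84 ± 0.22 (adjusted p = 0.0254), with no overlap and the wide pair on the p53+iASPP siRNA side. INSIG1 (1.35, adjusted p = 0.0535) did not pass. Over the members 26 of 31 changes were above 0, as were 59.2% over all genes, with a median of 0.36 beside 0.09 over all genes. That median was −0.02 without iASPP siRNA with nutlin replicate 1, 0.72 without its replicate 2, 0.62 without p53+iASPP siRNA with nutlin replicate 1 and 0.16 without its replicate 2, so its sign and size rest on these libraries. Neither call held without iASPP siRNA with nutlin replicate 1 or without p53+iASPP siRNA with nutlin replicate 1. More members passed without iASPP siRNA with nutlin replicate 2 or without either library of p53 siRNA with nutlin. With any other library left out FASN alone passed. Shares over all genes in these fits are not given here. EBP did not pass in 13 of the 16 fits that left out 1 library, with adjusted p between 0.0510 and 0.131, and passed only without iASPP siRNA with nutlin replicate 2 or without either library of p53 siRNA with nutlin. Under the lowest filter, a mean above 0, neither passed (EBP adjusted p = 0.0799, FASN adjusted p = 0.0507). Without the 3 diverging libraries 19 passed, 17 higher, with EBP at 1.76, FASN at −1.27 and TM7SF2 lower, where 22% of all genes were higher and 11.7% lower.

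Other genes of the 2 pathways were listed by role. The 12 tested genes of the sterol list act in sterol sensing, storage, uptake and efflux, apart from GGPS1, an enzyme of isoprenoid synthesis. Of these 12, 2 fell and none rose with nutlin in CTR siRNA cells, where 21% of all genes fell and 5.87% rose. The list thus fell no more often than all genes. The 2 that fell were TMEM97, a sterol-regulated membrane protein (−1.96 ± 0.53, adjusted p = 0.0193), and SOAT1, which esterifies cholesterol (−0.70, adjusted p = 0.00371). TMEM97 had 16.6 and 17.3 FPKM in CTR siRNA cells with nutlin, against 67.3 and 70.3 FPKM in CTR siRNA cells. Of 19 tested genes of fatty acid supply, activation and elongation, 7 fell and 2 rose in that comparison. ACSL3, an acyl-CoA synthetase, had 10.5 and 13.1 FPKM in CTR siRNA cells with nutlin, against 50.02 and 45.7 FPKM in CTR siRNA cells (log2 −1.94 ± 0.18, adjusted p = 3.43e-05). HACD2 (−1.05), TECR (−0.999) and ELOVL5 (−0.96), which elongate chains, fell with adjusted p between 0.000392 and 0.00315. FADS3, a relative of FADS1, had 40.4 and 44.96 FPKM in CTR siRNA cells with nutlin, against 13.1 and 14.8 FPKM in CTR siRNA cells (log2 1.55 ± 0.26, adjusted p = 0.00130). MID1IP1, a partner of ACACA, had 48.6 and 51.5 FPKM in CTR siRNA cells with nutlin, against 18.5 and 16.3 FPKM in CTR siRNA cells (log2 1.48 ± 0.24, adjusted p = 0.000971). Both genes lay far above their CTR siRNA levels in both libraries. With p53 siRNA in nutlin-treated cells 4 of the 12 rose and none fell, and 6 of the 19 rose and 2 fell, where 17.2% of all genes rose and 5.29% fell. The interaction passed for 1 of the 12, which was higher, and for 4 of the 19, 3 higher and 1 lower, where 7.65% of all genes were higher and 2.1% lower. With iASPP siRNA without nutlin, NR1H2, an oxysterol receptor, rose (1.17, adjusted p = 0.0190) and ACSL3 fell (−1.19, adjusted p = 0.00625), and no other gene of either list passed, where 2.75% of all genes rose and 5.11% fell.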

How the data were processed

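RNA of 16 HCT116 libraries was sequenced, with 2 libraries in each of 8 groups of siRNA and nutlin. Per the labels' protocols, cDNA for Illumina sequencing was made from bead-purified mRNA. The deposited table holds FPKM per gene and library, and the submitters' processing notes name edgeR and hg38/GRCh38 without their roles. For the aligner, the counter, the annotation and the use of strand, the step is not given in the sources used here. Values of the p53 transcript and some genes of the 2 pathways are not reported here. Columns were matched to samples by title, and 0 columns went unused.

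FPKM values were analysed as log2(FPKM + 1) with limma 3.58.1 in R 4.3.3. One fit of 8 group means to 16 libraries, with an intensity trend in the empirical Bayes step, gave 8 residual degrees of freedom. The filter was a mean of 1 FPKM or more over all libraries, which kept 10662 of 20271 genes, and p-values were adjusted by Benjamini-Hochberg within each comparison, with a threshold of 0.05. The 12 comparisons are those described above. Every member past the threshold is named, and others by level, range or count. The members and lists were chosen with earlier results of these data known. Without counts the precision of single values is unknown. Positions are from the GENCODE annotation of GRCh38, and promoter windows from RefSeq.

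Alternatives were median-of-ratios scaling of the FPKM, a pseudocount of 0.1, every gene with a mean above 0, a replicate block, leaving out the 3 replicate 2 libraries that diverge from their pairs, averaging the 5 close pairs into 1 sample each, and leaving out each library.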

Additional observations from a re-analysis of the deposited data

Results flagged for a closer look

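The nutlin effect on EBP differed between p53 siRNA and CTR siRNA cells by 2.07 on the log2 scale in the test of the difference itself (limma, adjusted p = 0.0166). In p53 siRNA cells EBP had 70.1 and 70.9 FPKM with nutlin, against 71.8 and 84.0 FPKM without. In CTR siRNA cells it had 13.0 and 14.5 FPKM with nutlin, against 66.2 and 67.9 FPKM without, and both nutlin libraries of CTR siRNA cells lay far under the other 6. The nutlin effect on ELOVL6 differed in the same test by 0.71 (adjusted p = 0.0465). ELOVL6 did not pass in limma after median-of-ratios scaling (adjusted p = 0.110) or with the replicate block (adjusted p = 0.0560). Nor did it pass under the lowest filter, a mean above 0 (limma, adjusted p = 0.0588). EBP passed in each of these settings. Each call was lost without some single libraries. Of the 31 members these 2 passed, both higher, where 7.65% of all genes tested were higher and 2.1% lower. That is no larger a share than over all genes.

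The log2 change of FASN with p53 siRNA had opposite signs in the 2 nutlin settings, and 1 of the 2 changes passed. It was −0.84 (limma, adjusted p = 0.0254) in cells that also had iASPP siRNA, with both p53+iASPP siRNA libraries lower, and did not pass there without replicate 1 of p53+iASPP siRNA with nutlin or replicate 1 of iASPP siRNA with nutlin. It was 0.20 (limma, adjusted p = 0.541) in cells without iASPP siRNA, with both p53 siRNA libraries higher, and did not pass. The difference between these 2 changes was not tested. FASN was picked from the members for its opposite directions, so these directions and the separation of its libraries add no support. Among the members FASN alone fell past the threshold in cells that also had iASPP siRNA, where 4.82% of all genes tested fell.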

How the results depend on the processing

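Of the 39 calls of single members in the 12 comparisons, none reversed under any alternative run. A pseudocount of 0.1 kept 39, the replicate block 38, scaling 29 and the lowest filter, a mean above 0, kept 19. Leaving out the 3 diverging libraries kept 39, and averaging the 5 close pairs, as if each were 1 sample, kept 0. These last settings partly fix their own outcome: the spread then comes from the 5 close pairs alone, or from the 3 wide pairs alone with 3 residual degrees of freedom. The number of members past the threshold with nutlin in CTR siRNA cells was 15, with 8 under the lowest filter, 23 without the diverging libraries, 0 with close pairs averaged, and 2 to 17 when 1 library was left out. For p53 siRNA in nutlin-treated cells it was 12, 0 with close pairs averaged and 4 to 17. For nutlin in p53 siRNA cells it was 0, 2 without the diverging libraries and 0 to 1. For the interaction it was 2, with 1 after scaling, 1 under the lowest filter, 5 with the replicate block, 20 without the diverging libraries, 0 with close pairs averaged and 0 to 12. For iASPP siRNA without nutlin it was 8, with 2 under the lowest filter, 20 without the diverging libraries, 0 with close pairs averaged and 0 to 17. The main count was 0 and the count without the diverging libraries was 12 for iASPP siRNA in nutlin-treated cells (0 to 3 with 1 library left out), 15 for nutlin in iASPP siRNA cells (0 to 4), 7 for p53 siRNA without nutlin (0 to 0), 15 for iASPP siRNA in p53 siRNA cells (0 to 2, and 1 after scaling) and 19 for p53 siRNA in iASPP siRNA cells (0 to 6). Nutlin in p53+iASPP siRNA cells gave 0 in every setting. For p53 siRNA in iASPP siRNA nutlin-treated cells it was 2, with 0 under the lowest filter, 19 without the diverging libraries, 0 with close pairs averaged and 0 to 19. Counts with 1 library left out are given without the share over all genes, so they describe the fit and do not single out the members. Where no sentence gives a cause, the cause was not tested.

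The labels give no pairing by replicate number. Over 28 pairs of groups the deviations of same-numbered libraries correlated between −0.03 and 0.30, and 3 of 28 were over 0.1: p53 siRNA with nutlin and p53+iASPP siRNA with nutlin (0.30), iASPP siRNA with nutlin and p53+iASPP siRNA with nutlin (0.17), and CTR siRNA with nutlin and CTR siRNA (0.11). With replicate number as a block the interaction passed for 5 members (ACAT2, IDI1, MSMO1, EBP and SC5D) and ELOVL6 had an adjusted p of 0.0560. The block moved no other count of members by more than 1.5 times. Without counts, the depth behind each value is unknown.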
